A study of Mus musculus with 11 samples.

Results

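The comparison concerned 5 of the 11 libraries of an RNA-seq series on mouse embryonic stem (ES) cells. They came from 3 lines that lacked the maintenance DNA methyltransferase Dnmt1 but had 1 de novo enzyme put back, and were chosen by their labels. All were J1 ES cells (strain 129S4/SvJae) kept with serum and mLIF on a feeder layer of irradiated fibroblasts from mouse embryos, and their polyA RNA was sequenced. The TKO add-backs lacked Dnmt1, Dnmt3a and Dnmt3b of their own and had Dnmt3a1 (2 libraries), Dnmt3a2 (2 libraries) or Dnmt3b1 (1 library) returned. They were set against wild type (WT, 1 library), against their parent TKO line (1 library), and against the DKO add-backs (3 libraries), in which the same 3 enzymes were returned to cells without Dnmt3a and Dnmt3b that kept Dnmt1. The DKO parent (1 library) is given for its values only. The question was which expression stayed away from WT once a de novo enzyme was back while Dnmt1 was absent.

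Dnmt1 copies methylation of CpG dinucleotides onto the new strand after replication, whereas Dnmt3a and Dnmt3b write it on unmethylated DNA. Dnmt3a1 is the longer isoform of Dnmt3a and Dnmt3a2 the shorter, and Dnmt3b1 is a catalytically active isoform of Dnmt3b. In ES cells CpG methylation is known to keep germline genes, several X-linked gene families and a parental allele of imprinted genes silent. The labels do not say what drove the returned enzymes, how many clones each line stands for, or whether libraries of the same line were grown apart. P-values thus cover the spread among these samples alone, which may be technical, and differences between clones and between genotypes cannot be told apart. RPKM, reads per kilobase of transcript scaled to library size, was the deposited unit, and differences are on the scale of log2(RPKM + 0.5), which understates the change of low genes.

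The methyltransferase transcripts themselves were read first. Dnmt1 had 8.49 and 7.27 RPKM in TKO+Dnmt3a1, 8.13 and 9.80 RPKM in TKO+Dnmt3a2 and 12.4 RPKM in TKO+Dnmt3b1, against 6.73 RPKM in TKO, 55.9 to 63.1 RPKM in the DKO add-backs and 71.0 RPKM in WT. All 5 add-backs lay below every Dnmt1-bearing library, at a log2 difference to WT of -2.90 ± 0.28, adjusted p = 0.02 (limma, Benjamini-Hochberg over 14229 genes). Dnmt3a had 39.4 and 34.2 RPKM in TKO+Dnmt3a1, 21.8 and 11.1 RPKM in TKO+Dnmt3a2 and 10.2 RPKM in TKO+Dnmt3b1, against 4.24 RPKM in TKO and 22.7 RPKM in WT, so the 4 Dnmt3a add-back libraries were above TKO, the Dnmt3b1 line too, and the 2 Dnmt3a1 libraries above WT. Dnmt3b had 28.9 and 20.9 RPKM in TKO+Dnmt3a1, 44.4 and 32.9 RPKM in TKO+Dnmt3a2 and 100.4 RPKM in TKO+Dnmt3b1, against 45.3 RPKM in TKO and 25.0 RPKM in WT. Its highest value was in the Dnmt3b1 line. The file holds 1 value per gene, so that transcripts of a disrupted and of an intact allele cannot be told apart, and the Dnmt3b value of TKO is no check of its label. Dnmt3l, the catalytically inactive cofactor of the de novo enzymes, had 275 and 338 RPKM in TKO+Dnmt3a1, 391 and 416 RPKM in TKO+Dnmt3a2 and 346 RPKM in TKO+Dnmt3b1, against 187 to 252 RPKM in the DKO add-backs and 97.0 RPKM in WT (1.85 ± 0.24, adjusted p = 0.0387 against WT, limma).

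The steps between low RPKM values put the depth at 21.7 to 32.78 M reads in the TKO add-backs and 32.42 M reads in WT. The ES-cell factors Pou5f1 (454 to 602 RPKM in the TKO add-backs, 729 RPKM in WT), Sox2 (122 to 267 RPKM, against 260.1 RPKM) and Nanog (164 to 443 RPKM, against 214 RPKM) were abundant throughout. Of the remaining ES-cell markers, Esrrb had 56.4 to 107 RPKM in the TKO add-backs and 137 RPKM in WT. Zfp42 had 36.5 to 49.1 RPKM, against 222 RPKM. Pou5f1, Esrrb and Zfp42 were thus below WT in every TKO add-back. RNA of feeder markers differed between libraries. The summed level of 30 fibroblast markers was 1045 to 1699 RPKM in the 4 Dnmt3a add-backs and 4466 RPKM in TKO+Dnmt3b1, against 400 to 3299 RPKM in the DKO add-backs and 765.0 RPKM in WT. That of 18 macrophage markers was 65.3 to 90.1 RPKM in the 4 Dnmt3a add-backs and 336 RPKM in TKO+Dnmt3b1, against 13.4 to 307 RPKM in the DKO add-backs and 48.2 RPKM in WT. None of these markers was at 0 in a TKO add-back or in WT, while 6 macrophage markers were at 0 in DKO+Dnmt3a2. Against WT, 28 of the 30 fibroblast markers were above 0 with a median of 1.06 (0.577 without TKO+Dnmt3b1), and 17 of the 18 macrophage markers with a median of 1.04 (0.53 without it). Their part in the results below was not tested. Y-linked transcripts also differed: Eif2s3y had 0.427 to 4.14 RPKM in the TKO add-backs, highest in TKO+Dnmt3b1, 39.4 to 41.4 RPKM in the DKO add-backs and 0.312 RPKM in WT. In bulk RNA, fewer cells of a type and less RNA per cell cannot be told apart.

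Against WT, 71 of 14229 genes (0.499%) differed in the 5 TKO add-backs, at an adjusted p under 0.05 in limma with Benjamini-Hochberg adjustment. Of these, 59 were higher (0.415%) and 12 lower (0.0843%), and 2037 genes passed an unadjusted p under 0.05. All 71 moved by more than 1 on the log2 scale, while the median of all genes was 0.12 above WT and 60.3% of genes were above 0. WT had 1 library and was assumed to vary like the add-backs. The count depended on single libraries: leaving out TKO+Dnmt3a1 replicate 1 gave 4 calls and leaving out its replicate 2 gave 24, leaving out TKO+Dnmt3a2 replicate 1 gave 1 call and its replicate 2 gave 8, and leaving out TKO+Dnmt3b1 gave 117. Counting a line as 1 sample left 0 calls in limma, with 1661 genes at p under 0.05 before adjustment. As a description free of the error estimate, 250 genes (1.76%) lay at least 1 above WT in all 5 libraries and 72 (0.506%) at least 1 below. In the mean of each line, 620 genes were at least 1 above and 235 at least 1 below WT for TKO+Dnmt3a1 (2 libraries). The counts were 1064 and 310 for TKO+Dnmt3a2 (2 libraries), and 2462 and 1136 for the single TKO+Dnmt3b1 library. The levels of the named genes in all 11 libraries are drawn in the heat map.

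**Figure D1:**
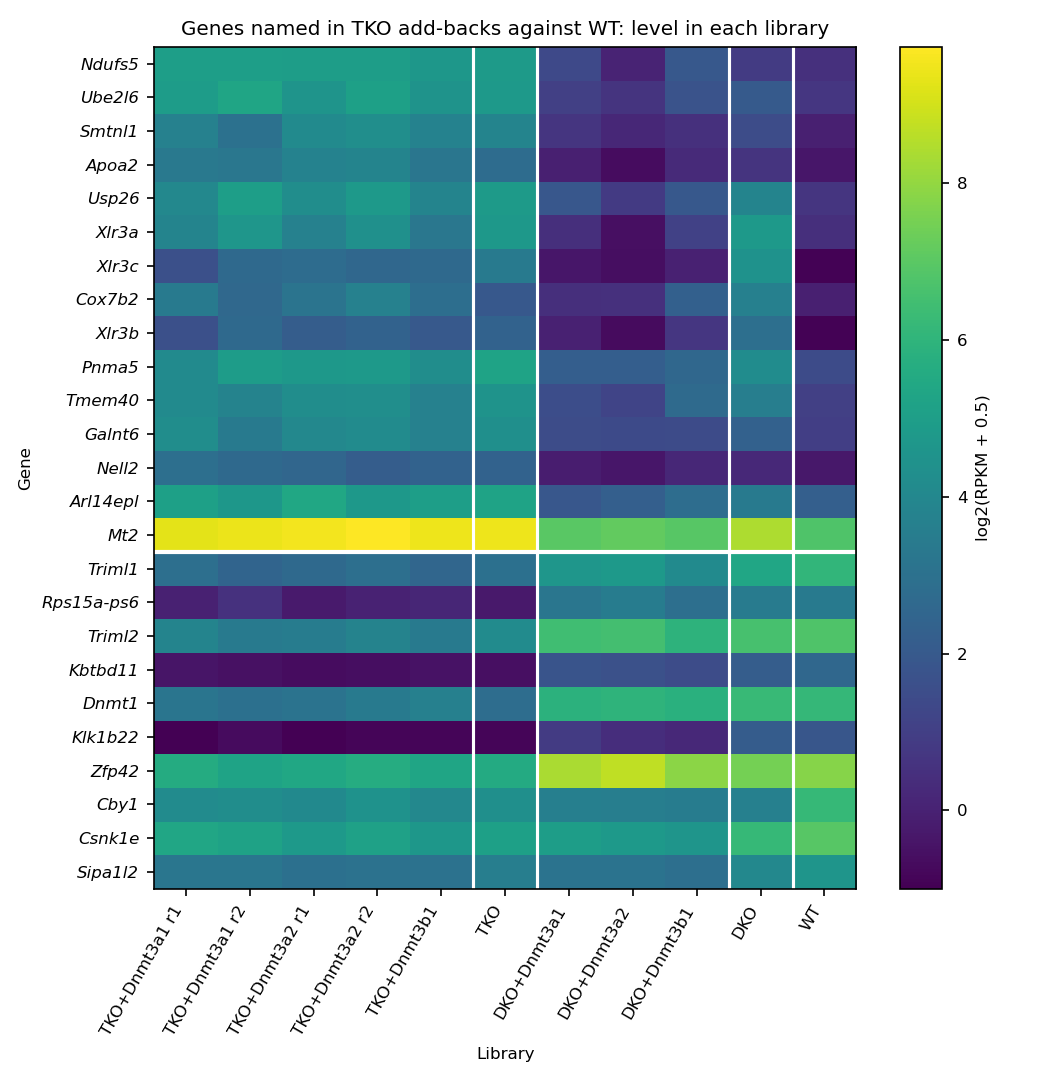
Level of each named gene (rows: 15 higher above the white line, 10 lower below it) in each library (columns), as log2(RPKM + 0.5). The 5 TKO add-backs and TKO share a colour in most rows, and the upper genes other than Mt2 are dark in WT. The X-linked rows of the Xlr3 genes, Usp26 and Pnma5 are also bright in DKO and dark in the DKO add-backs.

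Several autosomal genes that rose were low in WT and in the DKO add-backs alike. Ndufs5, a subunit of respiratory complex I, had 32.1 and 32.3 RPKM in TKO+Dnmt3a1, 31.4 and 31.3 RPKM in TKO+Dnmt3a2 and 25.1 RPKM in TKO+Dnmt3b1, against 2.12, 0.548 and 3.35 RPKM in the DKO add-backs and 0.903 RPKM in WT. The groups did not overlap, and the difference to WT was 4.46 ± 0.19, adjusted p = 0.00136. Ndufs4, another subunit of this complex, was not low in WT (38.97 RPKM), and RefSeq lists a transcribed pseudogene of Ndufs5, so that reads may be split between copies and the single value is uncertain. Ube2l6, an E2 enzyme that attaches ISG15 to proteins, had 30.5 and 38.98 RPKM in TKO+Dnmt3a1, 23.3 and 33.7 RPKM in TKO+Dnmt3a2 and 22.6 RPKM in TKO+Dnmt3b1, against 1.52, 1.03 and 2.88 RPKM in the DKO add-backs and 1.14 RPKM in WT (4.17 ± 0.32, adjusted p = 0.0116 against WT, limma). Its neighbour Smtnl1, a smoothelin-like muscle protein, had 12.6 and 7.46 RPKM in TKO+Dnmt3a1, 17.3 and 19.14 RPKM in TKO+Dnmt3a2 and 13.3 RPKM in TKO+Dnmt3b1, against 0.651 to 1.09 RPKM in the DKO add-backs and 0.451 RPKM in WT. Both genes were far below every TKO add-back in the libraries that had Dnmt1, DKO included (3.56 RPKM for Ube2l6 and 2.30 RPKM for Smtnl1).

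Other genes of varied function followed the same order of libraries. Apoa2, an apolipoprotein of high-density lipoprotein, had 8.71 to 14.0 RPKM in the TKO add-backs, 0.134 to 0.702 RPKM in the DKO add-backs and 0.295 RPKM in WT. Galnt6, which starts mucin-type O-glycosylation, had 10.3 to 18.6 RPKM in the TKO add-backs, 2.16 to 2.34 RPKM in the DKO add-backs and 1.47 RPKM in WT. Nell2, a secreted glycoprotein of neurons, had 4.04 to 7.04 RPKM, 0.274 to 0.642 RPKM and 0.309 RPKM in the same 3 groups. In each of these genes the lowest TKO add-back exceeded all the DKO add-backs and WT. Arl14epl had 25.1 to 41.1 RPKM in the TKO add-backs, 3.32 to 6.60 RPKM in the DKO add-backs and 4.25 RPKM in WT. Tesc, the calcium-binding protein tescalcin, had 9.58 to 15.7 RPKM, 0.807 to 1.23 RPKM and 1.56 RPKM in these groups. The log2 differences to WT of these 5 genes ran from 2.64 for Tesc to 3.82 for Apoa2, with adjusted p of 0.0119 to 0.0235 (limma, Benjamini-Hochberg).

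The metallothioneins, small proteins that bind zinc and other metals, were abundant in every library and higher still in the TKO add-backs. Mt2 had 631 and 678 RPKM in TKO+Dnmt3a1, 746 and 854 RPKM in TKO+Dnmt3a2 and 697 RPKM in TKO+Dnmt3b1, against 127, 144 and 122 RPKM in the DKO add-backs, 346 RPKM in DKO and 110.3 RPKM in WT. The 5 add-backs lay above every library with Dnmt1 (2.70 ± 0.21, adjusted p = 0.0116 against WT; 2.44 ± 0.09, adjusted p = 7.04e-05 against the DKO add-backs, limma). Its neighbour Mt1 had 424 to 619 RPKM in the TKO add-backs, 75.2 to 106 RPKM in the DKO add-backs and 98.5 RPKM in WT (2.32 ± 0.23, adjusted p = 0.0204 against WT). Both lie on chromosome 8, whose genes had a median below WT in the TKO add-backs (see the plot of chromosome medians). Metal response elements are known to bind the zinc-sensing factor Mtf1, so the 250 bases before the Mt2 start are printed, with matches to the core of this element in capitals (TGCACNC or TGCGCNC, on either strand; RefSeq, build GRCm38.p6, chr8:94172368-94172617, plus strand):
Mt2 promoter: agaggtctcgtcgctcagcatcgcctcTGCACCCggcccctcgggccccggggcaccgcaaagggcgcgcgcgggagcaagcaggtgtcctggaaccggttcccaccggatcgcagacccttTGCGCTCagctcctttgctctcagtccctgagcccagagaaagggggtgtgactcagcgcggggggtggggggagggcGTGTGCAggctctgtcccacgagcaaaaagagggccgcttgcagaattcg
This window held 3 matches and that of Mt1 held 1, while 21.4% of 32851 listed promoters held at least 1 and 1.26% at least 3. A match is a description of letters and not a binding site.

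Among the genes that stayed high were several on the X chromosome. The X-linked families Xlr, Rhox and Mage are expressed mainly in germ cells or placenta. Xlr3a had 14.0 and 24.8 RPKM in TKO+Dnmt3a1, 12.6 and 20.8 RPKM in TKO+Dnmt3a2 and 9.09 RPKM in TKO+Dnmt3b1, against 0.871, 0.169 and 1.602 RPKM in the DKO add-backs and 0.872 RPKM in WT. TKO (25.7 RPKM) and DKO (27.7 RPKM) were high as well, whereas all 3 DKO add-backs were below every TKO add-back. The difference was 3.52 ± 0.50, adjusted p = 0.047 against WT and 3.67 ± 0.42, adjusted p = 0.00272 against the DKO add-backs (limma). Xlr3b, which is imprinted in the brain, had 2.55 to 5.93 RPKM in the TKO add-backs, 0.129 to 1.13 RPKM in the DKO add-backs and 0.0190 RPKM in WT. Xlr3c had 2.58 to 6.497 RPKM, 0.154 to 0.498 RPKM and 0.0190 RPKM in these groups, and 9.87 RPKM in TKO, above every TKO add-back. The 3 Xlr3 genes are near-identical copies, so that their single values are uncertain.

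Usp26, a deubiquitinase of testis, had 15.7 and 32.3 RPKM in TKO+Dnmt3a1, 18.7 and 26.8 RPKM in TKO+Dnmt3a2 and 14.1 RPKM in TKO+Dnmt3b1, against 1.27 to 3.398 RPKM in the DKO add-backs and 1.10 RPKM in WT (3.71 ± 0.45, adjusted p = 0.0319 against WT, limma). Pnma5, a Gag-related gene of the paraneoplastic antigen family, had 17.1 to 29.8 RPKM in the TKO add-backs, 4.18 to 5.45 RPKM in the DKO add-backs and 2.27 RPKM in WT. Rhox1, a homeobox gene, had 5.49 to 10.4 RPKM in the TKO add-backs, up to 1.82 RPKM in the DKO add-backs and 0.902 RPKM in WT. In DKO, Usp26 had 13.7 RPKM, Pnma5 18.3 RPKM and Rhox1 6.66 RPKM, all above WT and the DKO add-backs. In TKO, Usp26 had 28.4 RPKM, Pnma5 36.7 RPKM and Rhox1 12.3 RPKM, and for Pnma5 and Rhox1 this was above every TKO add-back. In the list of 32 Rhox, Xlr and Mage genes, which also held Pnma5, 21 were tested. All 21 were above 0 against WT with a median of 1.61, and 12 were at least 1 above WT in all 5 libraries. The 5 called were Xlr3a, Xlr3b, Xlr3c, Rhox1 and Pnma5. Over all genes the median was 0.12, 1.76% were at least 1 above WT in all 5 libraries and 0.415% were called higher. Against the DKO add-backs 16 of the 21 were called higher, with a median of 1.68, where 15.4% of all genes were called higher with a median of 0.117. Against the parent TKO line 2 of the 21 were above 0 and 19 below, with a median of -0.618 and none called. The median of all genes in that comparison was 0.00582.

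CpG dinucleotides, the substrate of these enzymes, differed in number between the promoters. The 250 bases before the start are printed for Xlr3a, Xlr3b, Usp26 and Rhox1, and for the autosomal Ube2l6, with each CpG in capitals (RefSeq, build GRCm38.p6). The windows are Xlr3a chrX:73097096-73097345 (minus strand), Xlr3b chrX:73191929-73192178 (plus strand), Usp26 chrX:51801234-51801483 (minus strand), Rhox1 chrX:37222259-37222508 (minus strand) and Ube2l6 chr2:84798578-84798827 (plus strand):
Xlr3a promoter: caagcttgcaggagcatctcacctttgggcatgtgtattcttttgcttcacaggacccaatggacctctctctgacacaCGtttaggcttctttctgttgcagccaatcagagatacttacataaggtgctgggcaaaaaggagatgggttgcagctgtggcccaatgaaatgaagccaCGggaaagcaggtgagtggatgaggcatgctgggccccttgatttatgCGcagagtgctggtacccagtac
Xlr3b promoter: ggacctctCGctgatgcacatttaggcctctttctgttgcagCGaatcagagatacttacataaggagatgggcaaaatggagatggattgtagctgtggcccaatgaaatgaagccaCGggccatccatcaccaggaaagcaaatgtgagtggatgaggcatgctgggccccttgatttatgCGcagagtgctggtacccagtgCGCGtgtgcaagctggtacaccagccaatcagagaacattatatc
Usp26 promoter: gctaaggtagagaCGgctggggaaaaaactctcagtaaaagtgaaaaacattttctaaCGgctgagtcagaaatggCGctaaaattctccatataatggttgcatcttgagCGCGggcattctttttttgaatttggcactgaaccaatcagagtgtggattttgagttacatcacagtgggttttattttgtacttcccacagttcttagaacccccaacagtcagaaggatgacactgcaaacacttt
Rhox1 promoter: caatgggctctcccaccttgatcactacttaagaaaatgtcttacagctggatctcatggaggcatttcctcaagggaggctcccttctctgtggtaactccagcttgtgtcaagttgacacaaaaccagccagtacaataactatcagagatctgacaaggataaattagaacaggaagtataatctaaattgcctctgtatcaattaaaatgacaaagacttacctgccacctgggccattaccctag
Ube2l6 promoter: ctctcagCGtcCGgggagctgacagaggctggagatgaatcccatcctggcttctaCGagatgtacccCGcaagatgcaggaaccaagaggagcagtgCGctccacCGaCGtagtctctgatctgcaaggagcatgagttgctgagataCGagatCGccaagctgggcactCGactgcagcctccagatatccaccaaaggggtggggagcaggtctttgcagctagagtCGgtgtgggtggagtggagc
There were 3 CpG in the Xlr3a window, 6 in Xlr3b, 5 in Usp26, 0 in Rhox1 and 11 in Ube2l6. Pnma5 had 0, Xlr3c 6, Smtnl1 9, Ndufs5 18 and Mt2 21. Some autosomal called genes had few as well, among them Mylpf with 1, Zfp534 with 1, Ifi35 with 2 and Sfn with 3. Others had many, among them Tesc and Eif3j1 with 26, while no X-linked window at hand among the called genes held more than 6. These genes are examples, and whether X-linked genes differ from autosomal ones in CpG content was not tested. Windows were at hand for 56 of the 71 called genes (78.9%) and 76.6% of all genes tested, short of the 80% needed, so that a comparison of CpG content over the set was void.

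Germline genes moved unevenly. Cox7b2, a testis form of a cytochrome c oxidase subunit, had 9.84 and 5.68 RPKM in TKO+Dnmt3a1, 8.37 and 12.6 RPKM in TKO+Dnmt3a2 and 6.83 RPKM in TKO+Dnmt3b1, against 0.883 to 4.42 RPKM in the DKO add-backs and 0.451 RPKM in WT (3.22 ± 0.40, adjusted p = 0.0379 against WT, limma). The TKO parent had 3.39 RPKM, below every TKO add-back. DKO, which keeps Dnmt1, had 12.3 RPKM, above all the TKO add-backs but TKO+Dnmt3a2 replicate 2. Cox7b2 was the single member called among 36 tested germline genes, of which 25 were above 0 against WT with a median of 0.24. Against the DKO add-backs, 12 of the 36 were called higher and 3 lower, where 15.4% of all genes were called higher and 7.41% lower. Cyct, the testis cytochrome c, had 28.5 to 98.5 RPKM in the TKO add-backs, 3.88 to 5.47 RPKM in the DKO add-backs and 6.004 RPKM in WT. It was higher than in the DKO add-backs (3.38 ± 0.27, adjusted p = 0.00086) but not called against WT (adjusted p = 0.111). Stra8, the retinoic-acid-responsive gatekeeper of meiosis, had 105 and 129 RPKM in TKO+Dnmt3a1, 62.5 and 80.7 RPKM in TKO+Dnmt3a2 and 27.2 RPKM in TKO+Dnmt3b1, against 9.33, 7.24 and 2.36 RPKM in the DKO add-backs and 28.5 RPKM in WT. It was called against the DKO add-backs (3.36 ± 0.13, adjusted p = 7.04e-05) and not against WT (adjusted p = 0.452). TKO+Dnmt3b1 was at the WT level. TKO itself had 26.5 RPKM, below the 4 Dnmt3a libraries. Dazl, a germ-cell RNA-binding protein, ranged over 5.55 to 29.0 RPKM in the TKO add-backs, around 8.73 RPKM in WT.

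**Figure D2:**
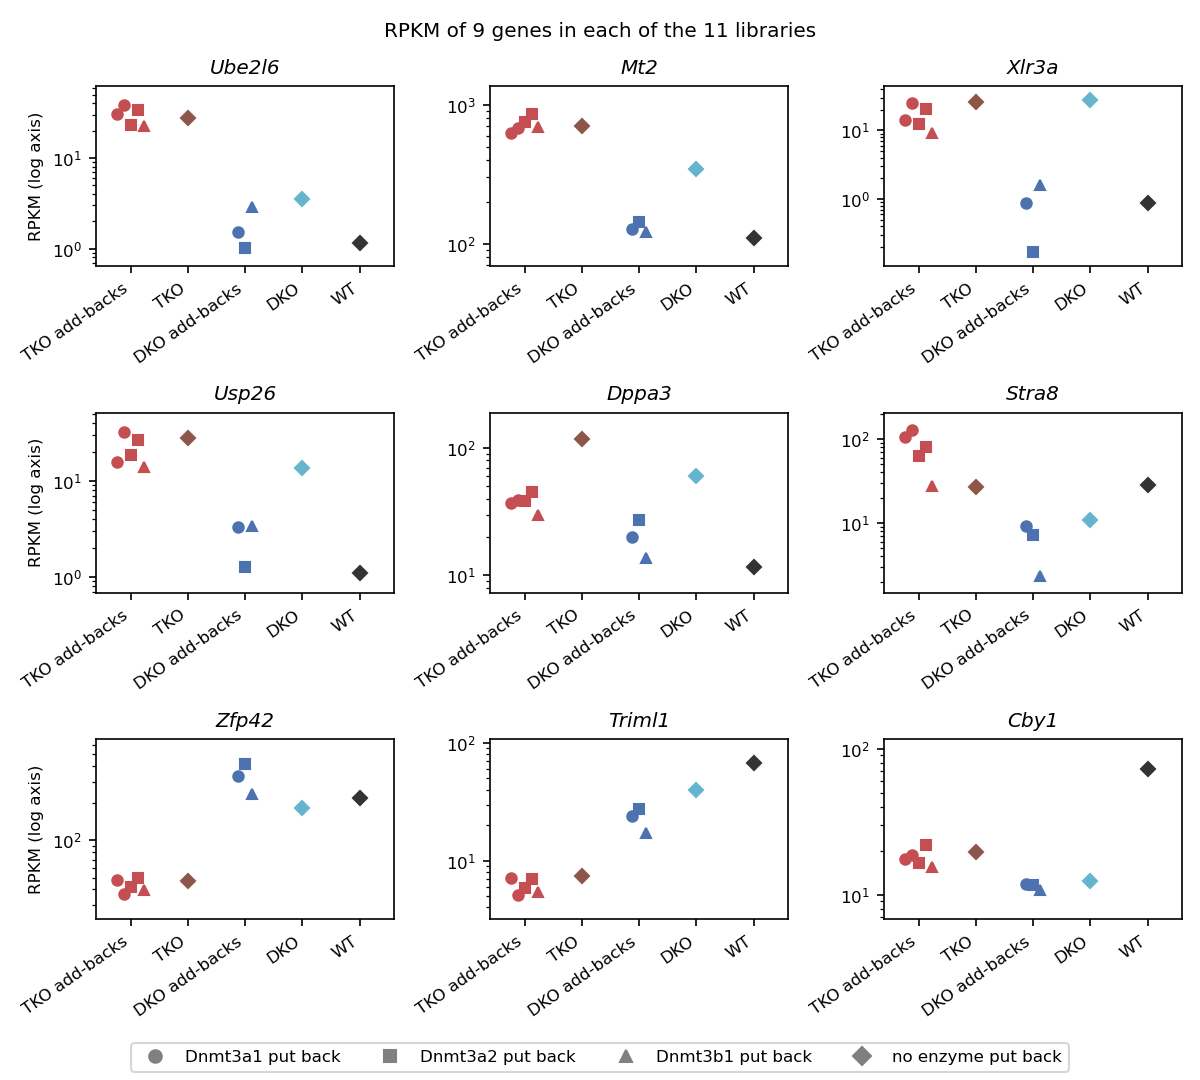
RPKM (log axis) of 9 genes in the 11 libraries; each point is a library, columns are groups and marker shapes the enzyme returned. For Ube2l6 and Mt2 the TKO add-backs and TKO are above the other libraries, Xlr3a and Usp26 are high in DKO too, Dppa3 lies between TKO and WT, Zfp42 and Triml1 are low in the TKO add-backs and TKO, and Cby1 is highest in WT.

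Dppa3 (Stella), known to shield DNA from Uhrf1-guided methylation, was an intermediate case. It had 37.2 and 39.03 RPKM in TKO+Dnmt3a1, 38.1 and 45.3 RPKM in TKO+Dnmt3a2 and 29.6 RPKM in TKO+Dnmt3b1, against 118 RPKM in TKO, 13.6 to 27.4 RPKM in the DKO add-backs and 11.7 RPKM in WT. The 5 add-backs lay below TKO and above the DKO add-backs and WT (1.64 ± 0.22, adjusted p = 0.045 against WT, limma), and the difference to TKO was not called (adjusted p = 0.398). Ifi35, an interferon-induced protein, had 8.62 to 12.02 RPKM in the TKO add-backs, 1.53 to 6.11 RPKM in the DKO add-backs and 2.38 RPKM in WT (1.89 ± 0.22, adjusted p = 0.0316 against WT). Gstp1, a glutathione transferase with a close copy in Gstp2, had 75.9 to 90.4 RPKM in the TKO add-backs, 41.9 to 59.2 RPKM in the DKO add-backs and 29.5 RPKM in WT (1.499 ± 0.15, adjusted p = 0.0219 against WT). Atf4, the transcription factor of the integrated stress response, had 191 to 262 RPKM, 62.1 to 90.9 RPKM and 64.1 RPKM in the same groups. In Ifi35, Gstp1 and Atf4 no TKO add-back overlapped WT or a DKO add-back.

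The remaining genes that rose were mostly of lower level or smaller change. Tmem40, a transmembrane protein, had 16.9 and 13.3 RPKM in TKO+Dnmt3a1, 18.6 and 19.2 RPKM in TKO+Dnmt3a2 and 12.8 RPKM in TKO+Dnmt3b1, against 1.79 to 6.11 RPKM in the DKO add-backs, 11.6 RPKM in DKO and 1.57 RPKM in WT (2.99 ± 0.27, adjusted p = 0.015 against WT, limma). Like the Xlr3 genes it was high in both parents, and so were Dcdc2a, a doublecortin-domain gene (1.73 to 2.67 RPKM in the TKO add-backs, 1.84 RPKM in DKO and 0.0650 RPKM in WT), and Fetub, the protease inhibitor fetuin-B (4.93 to 6.96 RPKM, 6.30 RPKM and 1.11 RPKM in the same groups). Nod1, a cytoplasmic sensor of bacterial peptidoglycan, had 4.17 to 7.12 RPKM in the TKO add-backs, 0.477 to 0.765 RPKM in the DKO add-backs and 0.464 RPKM in WT. Its level in TKO was 3.12 RPKM, below all 5 add-backs. Ncoa7, a nuclear receptor coactivator, had 10.2 to 12.9 RPKM in the TKO add-backs, 2.76 to 4.39 RPKM in the DKO add-backs and 2.11 RPKM in WT. Sfn, the 14-3-3 sigma protein, had 25.3 to 41.6 RPKM, 16.0 to 18.9 RPKM and 6.45 RPKM in these groups, and TKO had 15.8 RPKM. Thus Nod1, Ncoa7 and Sfn were higher in every add-back than in the TKO library, although no difference to TKO was called.

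Abundant genes were among the called ones as well. Mylpf, a regulatory light chain of myosin, had 144 and 158 RPKM in TKO+Dnmt3a1, 146 and 192 RPKM in TKO+Dnmt3a2 and 156 RPKM in TKO+Dnmt3b1, against 57.7 to 78.1 RPKM in the DKO add-backs and 46.9 RPKM in WT (1.74 ± 0.19, adjusted p = 0.0235 against WT, limma). Psmb5, the proteasome subunit with chymotrypsin-like activity, had 113 to 142 RPKM, 71.9 to 88.1 RPKM and 56.2 RPKM in these groups, and Mir686, next to it, was called in the same direction. Klhl13, an X-linked adaptor of a cullin ubiquitin ligase, had 125 to 215 RPKM in the TKO add-backs, 107 to 125 RPKM in the DKO add-backs and 33.7 RPKM in WT. Here WT stood below every other library. Glipr2, Hist1h4i, Myo1g, C1qtnf6, Pnp2, Fbp2, Agpat9 and Dpcr1 rose by log2 differences of 1.63 for Myo1g to 2.36 for Pnp2. Eif3j1 and Eif3j2, copies of a translation initiation factor subunit whose values follow each other closely and cannot be separated, had 20.3 to 26.4 RPKM and 20.3 to 26.4 RPKM in the TKO add-backs and 7.59 RPKM and 7.62 RPKM in WT. Most of the other called genes carried predicted or clone names or were pseudogenes. Among them 2210409E12Rik had 27.0 to 52.7 RPKM in the TKO add-backs, 2.66 to 6.33 RPKM in the DKO add-backs and 4.20 RPKM in WT.

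Of the 12 genes that fell, 7 lie on chromosome 8, and 3 of these are neighbours. The 7 are 0.902% of the 776 genes tested on that chromosome, where 0.0843% of all genes were called lower. Zfp42 (Rex1), a zinc finger protein that marks naive pluripotency, had 47.6 and 36.5 RPKM in TKO+Dnmt3a1, 42.2 and 49.1 RPKM in TKO+Dnmt3a2 and 39.8 RPKM in TKO+Dnmt3b1, against 47.3 RPKM in TKO, 335, 415 and 237 RPKM in the DKO add-backs and 222 RPKM in WT. The difference was -2.36 ± 0.19, adjusted p = 0.0119 against WT and -2.94 ± 0.14, adjusted p = 0.000129 against the DKO add-backs (limma). Triml1, a tripartite-motif-like gene, had 5.06 to 7.18 RPKM in the TKO add-backs, 17.1 to 27.7 RPKM in the DKO add-backs and 67.4 RPKM in WT. Triml2, its relative and neighbour, had 10.2 to 13.8 RPKM, 61.0 to 91.2 RPKM and 111 RPKM in these groups. All 3 genes were lower in every TKO add-back and in TKO than in every library with Dnmt1. Zfp42 was the single called member of 27 naive pluripotency genes, where 0.0843% of all genes were called lower. Of the 27, 21 were below 0 against WT with a median of -0.305 (-0.134 without TKO+Dnmt3b1). By library, the median of the list ran from -0.851 in TKO+Dnmt3b1 to 0.00963 in TKO+Dnmt3a1 replicate 1.

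Kbtbd11, a Kelch-domain protein, had 0.131 to 0.253 RPKM in the TKO add-backs, 2.30 to 2.98 RPKM in the DKO add-backs and 5.58 RPKM in WT. The genes of chromosome 8 had a median of -0.299 against WT, between -0.368 and -0.218 in the 5 libraries, and those of chromosome 11 a median of 0.355, while the other chromosomes except Y had 0.0547 to 0.176. With chromosome medians subtracted, Zfp42, Triml1, Triml2 and Kbtbd11 were still called, at -2.06, -3.08, -2.90 and -2.84, whereas Sipa1l2 (-1.19, adjusted p = 0.0993, limma) was not. Xlr3a, Ifi35 and Dppa3 also missed the threshold (adjusted p = 0.0649, 0.0652 and 0.0651), at differences of 3.34, 1.54 and 1.56, against 3.52, 1.89 and 1.64 as deposited.

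**Figure D3:**
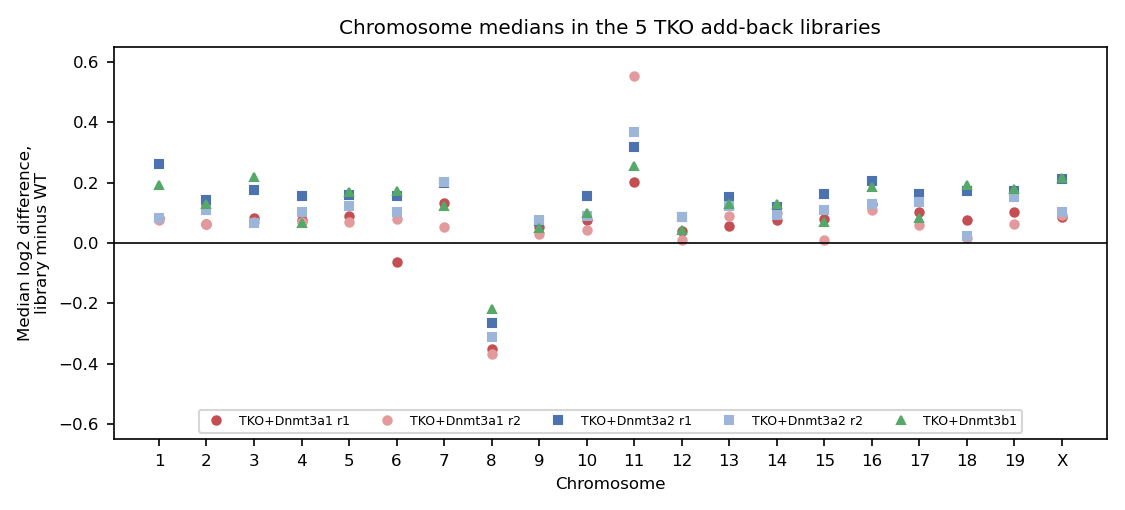
Median log2 difference to WT of the genes on each chromosome (horizontal axis), 1 point per TKO add-back library. Chromosome 8 is below 0 in all 5 libraries (-0.368 to -0.218) and chromosome 11 is the highest in all 5 apart from chromosome Y (0.202 to 0.553).

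A second kind of fall was shared with the DKO add-backs. Cby1, an antagonist of beta-catenin, had 17.7 and 18.8 RPKM in TKO+Dnmt3a1, 16.4 and 21.8 RPKM in TKO+Dnmt3a2 and 15.5 RPKM in TKO+Dnmt3b1, against 11.8, 11.6 and 10.8 RPKM in the DKO add-backs and 72.7 RPKM in WT. WT stood above all the other libraries, and the TKO add-backs were above the DKO add-backs (0.61 ± 0.12, adjusted p = 0.0133, limma). Its neighbour Csnk1e, a casein kinase of Wnt and clock signalling, had 25.2 to 39.9 RPKM in the TKO add-backs, 24.1 to 31.3 RPKM in the DKO add-backs and 122 RPKM in WT. Sipa1l2, a Rap GTPase-activating protein, had 7.39 to 8.78 RPKM, 7.10 to 8.09 RPKM and 23.6 RPKM in these groups. Csnk1e and Sipa1l2 did not pass the test against the DKO add-backs (log2 difference 0.19 ± 0.11, adjusted p = 0.227 and 0.05 ± 0.10, adjusted p = 0.747). Rps15a-ps6, a pseudogene that shares sequence with Rps15a and is therefore uncertain, had 0.368 to 0.946 RPKM in the TKO add-backs, 6.99 to 10.9 RPKM in the DKO add-backs and 10.3 RPKM in WT. Klk1b22, a kallikrein, had 0 to 0.113 RPKM, 0.684 to 1.30 RPKM and 3.21 RPKM in these groups. The DKO add-backs of these last 2 genes lay well above all the TKO add-backs.

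Against the DKO add-backs, fitted with the enzyme as a covariate, 3243 of 14229 genes (22.8%) were called by limma, 2189 higher (15.4%) and 1054 lower (7.41%), and 757 of them moved by more than 1. The share of higher calls depended on scaling: it was 67.5% as deposited, 54.8% with median ratio scaling, 51.9% with chromosome medians subtracted and 44.4% with quantile normalization. Leaving out DKO+Dnmt3a1 gave 600 calls, leaving out DKO+Dnmt3a2 gave 329, and leaving out TKO+Dnmt3a1 replicate 1 gave 2156. Of the 71 genes called against WT, 53 were also higher (0.372% of genes tested) and 9 also lower (0.0633%) than in the DKO add-backs. Besides the genes above, Serpina3m, a serine protease inhibitor, had 2.28 to 7.33 RPKM in the TKO add-backs and 0.0210 to 0.292 RPKM in the DKO add-backs (3.21 ± 0.28, adjusted p = 0.00102). Trh, the precursor of thyrotropin-releasing hormone, had 16.9 to 39.2 RPKM in the TKO add-backs and 211 to 268 RPKM in the DKO add-backs (-3.13 ± 0.25, adjusted p = 0.00086). Among the 8 largest falls, Uba1y, Eif2s3y, Ddx3y, Uty and Zfy1 are Y-linked, and Uba1y was at 0 to 0.015 RPKM in the TKO add-backs and 6.36 to 14.0 RPKM in the DKO add-backs.

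A few genes called higher against WT overlapped between both sets of add-backs. Lincenc1, a long noncoding RNA of ES cells, had 81.8 to 99.5 RPKM in the TKO add-backs, 70.9 to 84.6 RPKM in the DKO add-backs and 24.5 RPKM in WT. Its difference to the DKO add-backs was 0.17 ± 0.10, adjusted p = 0.243 (limma). The zinc finger gene Zfp534 had 17.0 to 24.1 RPKM in the TKO add-backs, 15.5 to 20.2 RPKM in the DKO add-backs and 6.75 RPKM in WT. Its close relative Zfp600, with which it may share reads, had 7.21 to 9.34 RPKM in the TKO add-backs, 8.23 to 12.04 RPKM in the DKO add-backs and 2.35 RPKM in WT. Tmem126b, an assembly factor of complex I, had 11.9 to 14.9 RPKM, 11.6 to 12.8 RPKM and 3.76 RPKM in these groups. In all 4 genes WT was the lowest of the 3 groups, and in none was the difference to the DKO add-backs called (adjusted p = 0.243, 0.229, 0.395 and 0.284).

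Against the parent TKO line no gene of 14229 (0%) was called by limma, with a smallest adjusted p of 0.344, and 998 genes passed an unadjusted p under 0.05. TKO had 1 library, and a p that misses the threshold does not show that the lines are alike. The largest uncalled differences are given by value. Igll1, a component of the surrogate light chain of B-cell precursors, had 0.139 to 0.886 RPKM in the TKO add-backs and 6.72 RPKM in TKO, and is listed at 0 in WT. Vpreb1, the other component, had 0.431 to 2.15 RPKM in the TKO add-backs, 6.86 RPKM in TKO and 0.318 RPKM in WT. Pramel6, a germline-related gene known to promote demethylation in ES cells, had 0.575 to 2.66 RPKM in the TKO add-backs, 6.11 RPKM in TKO and 0.138 RPKM in WT. In these 3 genes every add-back lay below TKO. Apela, which encodes a ligand of the apelin receptor, had 5.32 to 11.6 RPKM in the TKO add-backs, 39.3 RPKM in TKO and 38.3 RPKM in WT, so that the add-backs lay below both. On the other side, Hal, the enzyme that deaminates histidine, had 3.30 to 5.67 RPKM in the TKO add-backs, 0.916 RPKM in TKO and 1.15 RPKM in WT. Cdx1, a caudal homeobox factor, had 1.87 to 7.71 RPKM in the TKO add-backs, 0.936 RPKM in TKO and 5.72 RPKM in WT. Both were above TKO in all 5 add-backs. Ephx2, a soluble epoxide hydrolase, had 6.77 to 26.6 RPKM in the TKO add-backs, 3.07 RPKM in TKO and 17.2 RPKM in WT. Mep1b, a metalloprotease subunit, had 2.28 to 21.9 RPKM, 0.385 RPKM and 2.19 RPKM in these groups.

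Lists of lineage genes held no call against WT, and are described by their medians beside the 0.12 of all genes. Of 20 tested endoderm genes, 17 were above 0 with a median of 1.16, and 14 were called higher than in the DKO add-backs, where 15.4% of all genes were called higher and their median was 0.117. Feeder markers moved in that comparison too: 29 of 30 fibroblast markers were above the DKO add-backs (median 0.869, 3 called) and 18 of 18 macrophage markers (median 0.708, 4 called). Srgn, the proteoglycan serglycin, had 9.36 and 9.02 RPKM in TKO+Dnmt3a1, 6.45 and 7.71 RPKM in TKO+Dnmt3a2 and 21.5 RPKM in TKO+Dnmt3b1, against 0.679 to 8.88 RPKM in the DKO add-backs and 1.95 RPKM in WT. Cubn, the endocytic receptor cubilin, had 1.75 to 7.72 RPKM in the TKO add-backs, 0.609 to 3.06 RPKM in the DKO add-backs and 0.270 RPKM in WT. In both genes TKO+Dnmt3b1 was the highest of the 5. The median was 0.844 without TKO+Dnmt3b1, the library with the most feeder marker RNA, whose part in this list was not tested. Of 17 trophoblast genes, 15 were above 0 with a median of 0.998 and 10 were called higher than in the DKO add-backs (15.4% of all genes), among them Hand1 (3.89 to 14.3 RPKM in the TKO add-backs, 0.509 to 2.05 RPKM in the DKO add-backs and 0.833 RPKM in WT). Of 31 interferon and RNA-sensing genes, 27 were above 0 with a median of 0.733 (0.608 without TKO+Dnmt3b1). The 2 called members were Ifi35 and Ube2l6. Isg15, the ubiquitin-like protein that Ube2l6 conjugates, had 14.5 and 9.60 RPKM in TKO+Dnmt3a1, 52.9 and 13.8 RPKM in TKO+Dnmt3a2 and 43.9 RPKM in TKO+Dnmt3b1, against 1.65 to 29.9 RPKM in the DKO add-backs and 7.02 RPKM in WT, and its highest values were in TKO+Dnmt3a2 replicate 1 and TKO+Dnmt3b1.

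Imprinted genes were mostly above WT without a call. Of 18 genes expressed from the maternal allele, 13 were above 0 with a median of 0.799, and of 22 expressed from the paternal allele, 19 with a median of 0.581 (0.426 without TKO+Dnmt3b1). H19, a noncoding RNA that limits growth, had 89.8 and 109 RPKM in TKO+Dnmt3a1, 313 and 342 RPKM in TKO+Dnmt3a2 and 391 RPKM in TKO+Dnmt3b1, against 57.8 to 66.9 RPKM in the DKO add-backs and 29.8 RPKM in WT. Peg3, a zinc finger gene, had 24.4 to 53.7 RPKM in the TKO add-backs, 10.98 to 17.4 RPKM in the DKO add-backs and 14.1 RPKM in WT. In both genes all the TKO add-backs lay above WT and the DKO add-backs, and both were called against the DKO add-backs (adjusted p = 0.0145 and 0.00237, limma) but not against WT (adjusted p = 0.233 and 0.199). The lists as a whole did not go 1 way in that comparison. Of the 22 paternally expressed genes, 11 were above and 11 below the DKO add-backs with a median of 0.0465, 3 called higher and 4 lower. Of the 18 maternally expressed genes, 13 were above and 5 below with a median of 0.562, 2 called higher and 1 lower, where 15.4% of all genes were called higher and 7.41% lower. Mest, a hydrolase-like protein, had 32.8 to 58.3 RPKM in the TKO add-backs, 76.9 to 95.5 RPKM in the DKO add-backs and 37.6 RPKM in WT, and was lower than in the DKO add-backs (-0.92 ± 0.19, adjusted p = 0.0164). Impact, a regulator of the translation kinase Gcn2, had 40.7 to 62.8 RPKM, 77.5 to 78.4 RPKM and 42.3 RPKM in these groups and was lower likewise (-0.59 ± 0.13, adjusted p = 0.0199). The other 3 genes called lower were Magel2, Zdbf2 and Ube3a.

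Genes of the 2-cell-like state, a rare state of ES cells, lay on the other side. Of 21 tested, 16 were below 0 against WT with a median of -0.621 (-0.778 without TKO+Dnmt3b1), and none was called. The libraries differed: the median ranged from -1.26 in TKO+Dnmt3a1 replicate 1 to 0.0019 in TKO+Dnmt3b1, and that library and TKO+Dnmt3a1 replicate 2 (-0.168) were nearest to WT. Against the DKO add-backs all 21 were below 0 with a median of -1.10 and 13 were called lower, where 7.41% of all genes were. Zscan4d, a telomere-linked zinc finger gene with close copies, had 0.799 and 3.86 RPKM in TKO+Dnmt3a1, 0.850 and 1.62 RPKM in TKO+Dnmt3a2 and 3.95 RPKM in TKO+Dnmt3b1. It had 0.478 RPKM in TKO, 0.523 RPKM in DKO, 9.97, 8.48 and 39.3 RPKM in the DKO add-backs and 5.94 RPKM in WT. Hypoxia and glycolysis genes were below 0 against WT in 25 of 29, with a median of -0.468 (-0.289 without TKO+Dnmt3b1), yet 27 of 29 were above the DKO add-backs and 8 were called higher, where 61.8% of all genes were above and 15.4% called higher. Bnip3, a mitophagy receptor, had 136 and 164 RPKM in TKO+Dnmt3a1, 42.1 and 168 RPKM in TKO+Dnmt3a2 and 17.6 RPKM in TKO+Dnmt3b1, against 21.7 to 59.7 RPKM in the DKO add-backs and 158 RPKM in WT, and the 5 add-backs ranged from far below WT to above it. Medians nearer to that of all genes were found for primed epiblast (0.376), mesoderm (0.304), p53 targets (0.216), H3K9 methylation (0.0633), Polycomb subunits (-0.0244), glutathione enzymes (-0.0125) and the list of methyltransferases, Tet enzymes and readers (0.221). Neural ectoderm had a median of 0.539, and of 0.281 without TKO+Dnmt3b1.

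**Figure D4:**
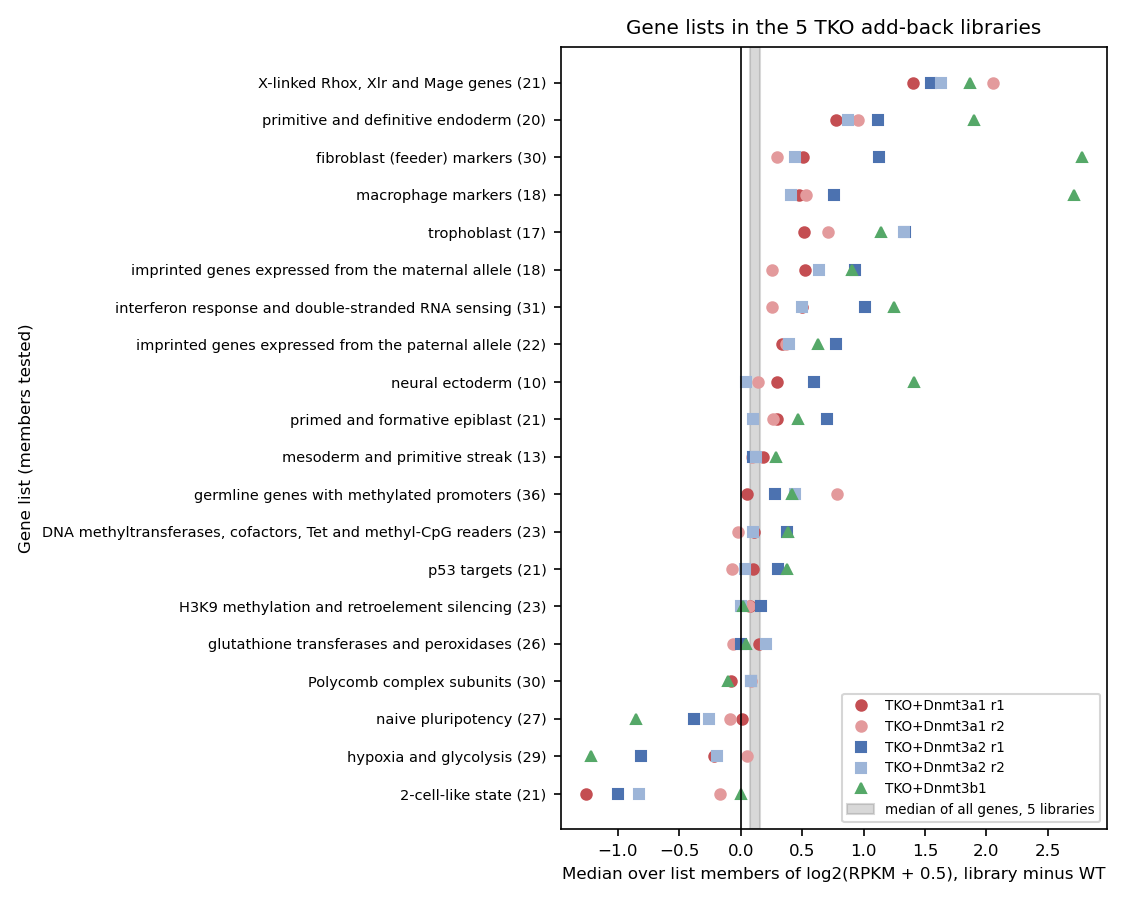
Median over the tested members of each list (number in brackets) of the log2 difference to WT, 1 point per TKO add-back library; the grey band spans the medians of all genes in the 5 libraries. X-linked genes are to the right of the band in all 5 libraries, and TKO+Dnmt3b1 is the farthest right for fibroblast markers (2.78) and macrophage markers (2.71).

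Some called genes were neighbours. Another called gene lay within 250 kb of 23 of the 71 (32.4%), against 485 of 14213 placed genes (3.41%), and within each such group the direction was the same. The groups included Ube2l6 with Smtnl1, Mt1 with Mt2, Xlr3a, Xlr3b and Xlr3c with Pnma5, Triml1 and Triml2 with Zfp42, and Cby1 with Csnk1e. Copies that share reads add to these groups, and since the library kit keeps no strand, overlapping genes share reads too. Places were taken from RefSeq and used for neighbourhood only.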

How the data were processed

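Per the labels' protocols, RNeasy RNA was polyA-selected and made into TruSeq v2 libraries, which keep no strand. The submitters' processing notes name mm9, STAR 2.4.0 and bcl2fastq 1.8.4. The authors deposited RPKM for 24016 genes; counting tool, gene lengths and strand setting are not given in the sources used here. Read depth (21.7 to 32.78 M reads) was estimated from short transcripts (up to 400 nt, up to 5 reads, tolerance 0.05), at which 98.9% to 100% of values were whole reads. The 14229 genes that reached 1 RPKM in any of the libraries were taken as log2(RPKM + 0.5) and fitted with limma 3.58.1 (trend) in R 4.3.3, with calls at an adjusted p under 0.05 (Benjamini-Hochberg), after a test on simulated data. Fits had 4 residual degrees of freedom. Members and lists were chosen with earlier results of these data known. Genes were named by a rule: among called genes with a mean of at least 1 RPKM on either side and an approved symbol, the 15 largest changes each way against WT, 8 against the DKO add-backs, 5 uncalled against TKO, genes called the same way in both, and called list members; all further genes the text names were chosen after their values were seen. Promoters were 250 bases from RefSeq. A few genes that meet the rule are not reported here.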

Additional observations from a re-analysis of the deposited data

Results flagged for a closer look

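Among 52 named genes, 3 had 1 TKO add-back library apart from the other 4 by Dixon's test; chance sets apart about 1 in 20 such groups. Ndufs5 was lowest in TKO+Dnmt3b1, at 25.095 RPKM against 31.288 to 32.334 RPKM in the other 4. Xlr3c was lowest in TKO+Dnmt3a1 replicate 1, at 2.58 RPKM against 5.569 to 6.497 RPKM. Uba1y was highest in TKO+Dnmt3a1 replicate 2, at 0.015 RPKM, with 0 RPKM in the other 4; with 4 values at 0 any other value above 0 is set apart, and the value is below what these depths can resolve, so that nothing is read from it.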

How the results depend on the processing

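Against WT, the 71 calls became 108 with a pseudocount of 0.1, 42 with a pseudocount of 1, 131 without a filter on low values (94 lower, of which 64 were at 0 in all 5 add-backs), 35 with quantile normalization, 147 with 9 group means over the 11 libraries, 0 with each line counted once, and 1 to 117 with each TKO add-back library left out; all 71 were kept without TKO+Dnmt3b1. The count was 61 with median ratio scaling and 60 with chromosome medians subtracted. Quantile normalization put the median of all genes at -0.0161, against 0.121 as deposited. Against TKO, the count of 0 became 69 without a filter (60 at 0 in all 5 add-backs) and was 0 under the other alternatives run. Against the DKO add-backs, the 3243 calls became 1619 with 9 group means and 329 to 3441 with each library left out. Of the genes with all 5 libraries at least 1 above WT (250), there were 508 with a pseudocount of 0.1 and 163 with 1; at least 1 below (72), there were 110 with a pseudocount of 0.1 and 128 with quantile normalization; with each library left out, there were 254 to 343 above and 78 to 94 below.

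By their labels, same-numbered TKO+Dnmt3a1 and TKO+Dnmt3a2 libraries shared only a number. The correlation of their deviations was 0.0859 across 14229 genes, which does not show whether smaller sets of genes varied together. Usp26, Xlr3a, Cyct and Ube2l6 were higher in replicate 2 than in replicate 1 of both lines, whereas Smtnl1 and Zfp42 went opposite ways. With the replicate block, 30 genes were called against WT, 0 against TKO and 1803 against the DKO add-backs. Of 479 values of named genes against WT, 288 kept their call, 191 lost it and 0 turned round; of 890 against the DKO add-backs, 855 kept it, 35 lost it and 0 turned round. The cause of these moves was not tested. At the lowest depth 10 reads in a transcript of 2 kb are 0.23 RPKM, which limits what can be read from genes near 0 in WT.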

Other observations

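Some genes, chosen after their values were seen, split the TKO add-backs by line and were not tested between lines. Otx2, a homeobox factor of primed epiblast, had 7.06 and 7.14 RPKM in TKO+Dnmt3a1, 0.950 and 0.954 RPKM in TKO+Dnmt3a2 and 1.74 RPKM in TKO+Dnmt3b1, against 0.585 RPKM in TKO and 7.60 RPKM in WT, so that the 2 Dnmt3a1 libraries were at the WT level and the Dnmt3a2 libraries near TKO. Rhox6 and Rhox9, placenta-expressed homeobox genes with close sequence, ran the other way. Rhox6 had 6.62 and 6.35 RPKM in TKO+Dnmt3a1, 32.4 and 30.3 RPKM in TKO+Dnmt3a2 and 18.6 RPKM in TKO+Dnmt3b1, against 17.0 RPKM in TKO and 1.73 RPKM in WT. Rhox9 had 5.49 and 3.93 RPKM in TKO+Dnmt3a1, 22.0 and 17.8 RPKM in TKO+Dnmt3a2 and 12.3 RPKM in TKO+Dnmt3b1, against 12.8 RPKM in TKO and 1.66 RPKM in WT. In both, the Dnmt3a1 libraries were the lowest of the 5 and still above WT. Krt8, a keratin of simple epithelia, had 5.53 and 11.4 RPKM in TKO+Dnmt3a1, 27.5 and 27.1 RPKM in TKO+Dnmt3a2 and 27.3 RPKM in TKO+Dnmt3b1, against 11.6 RPKM in TKO and 7.95 RPKM in WT, with the Dnmt3a2 and Dnmt3b1 libraries at 1 level.

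The parent TKO library differed from its add-backs by chromosome. The median of the TKO add-backs minus TKO was -0.417 for chromosome 6, -0.371 for chromosome 8, -0.314 for chromosome 16 and -0.208 for chromosome 12, and the median over all genes was 0.00582. Dppa3 lies on chromosome 6, Apela on chromosome 8, and Igll1 and Vpreb1 lie on chromosome 16. The part of these shifts in the differences to TKO was not tested.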
